A study of Homo sapiens with 4 samples.

Results

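The ID proteins ID1, ID2, ID3 and ID4 and the E proteins TCF3, TCF4 and TCF12 were examined as 7 of the 19775 gene symbols on the array, through all probe sets that the platform annotation assigns to one of these symbols alone. This gave 35 of the 54613 probe sets, and 30 of the 35 were bright enough to be tested. They comprised 1 probe set for ID1, 2 for ID2, 1 for ID3, 5 for ID4, 14 for TCF3, 8 for TCF4 and 4 for TCF12. Probe sets of a gene share their target and are not independent. RNA came from Raji, an established Burkitt lymphoma line of B-cell origin, and was hybridised to Affymetrix HG-U133 Plus 2.0 arrays. The 4 arrays compared a clone with DLEU1, a long non-coding RNA gene, downregulated by TALENs, which are nucleases directed to a chosen DNA site, with a control clone of wild-type genotype, 2 arrays for each clone. All cells grew in RPMI medium with fetal bovine serum. Each genotype was 1 clone, so the effect of DLEU1 cannot be told apart from other differences between the clones. The labels do not say whether the duplicates were separate cultures, so p-values measure only the spread between arrays, which may be technical.

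E proteins are basic helix-loop-helix transcription factors that pair with each other or with tissue-specific relatives and bind the E-box, a short DNA motif found at many B-cell genes. ID proteins carry the helix-loop-helix part without the basic DNA-binding part, so an E protein bound to an ID protein cannot hold DNA. In Burkitt lymphoma, mutations that disable ID3 or make TCF3 insensitive to it are frequent, and TCF3 drives tonic B-cell receptor signalling and cyclin D3 in this tumour. TCF4 here is the E protein, not the Wnt effector TCF7L2, which once shared its symbol.

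ID2 and ID3 are the ID genes with probe sets well above the dim range, and ID2 rose where ID3 did not, so the 250 bases before their starts are shown, read from the RefSeq promoter table on GRCh38.p14 in the direction of transcription. Capitals mark matches to CANNTG, the general E-box, which reads the same on both strands.
ID2, chr2:8681806-8682055, plus strand: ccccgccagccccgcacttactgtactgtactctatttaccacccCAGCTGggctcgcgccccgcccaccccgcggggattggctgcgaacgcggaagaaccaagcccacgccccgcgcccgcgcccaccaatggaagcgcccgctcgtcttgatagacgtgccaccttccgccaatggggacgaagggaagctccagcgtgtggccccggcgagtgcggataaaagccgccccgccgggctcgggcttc
ID3, chr1:23559502-23559751, minus strand: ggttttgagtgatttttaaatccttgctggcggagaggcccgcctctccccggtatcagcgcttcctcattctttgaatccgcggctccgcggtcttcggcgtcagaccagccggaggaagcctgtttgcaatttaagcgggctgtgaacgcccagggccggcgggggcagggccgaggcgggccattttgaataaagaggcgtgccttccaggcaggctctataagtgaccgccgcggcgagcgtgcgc
The ID2 window held 1 match, of the form CAGCTG, and the ID3 window held 0. Among 35114 promoter windows of the same length, 61.8% held CANNTG, 14% held CAGCTG, and 17.5% held CAGGTG on either strand, both of which are forms of CANNTG. Windows of all 7 genes were in the table. ID4 had 1 match, ID1 and TCF3 had 0, and 5 of 10 windows for TCF4 and 2 of 5 for TCF12 had a match. The table thus lists 10 starts for TCF4 and 5 for TCF12, against 1 for each of the other genes. A match describes letters in this window and no binding was measured.

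The arrays differed in overall brightness, and this bears on every result. The 2% trimmed mean intensity of the control arrays was 163 and 131, and that of the DLEU1-downregulated arrays 172 and 197, so the deposited values had no common scale. Tests were therefore run on quantile-normalized values, where the median log2 change over all tested probe sets was 0.01. It was 0.16 for the values as deposited, 0.21 after centring each array on its median and -0.09 after scaling to a common trimmed mean. Adjusted p was under 0.05, the threshold used throughout, for 11073 of the 32768 probe sets tested (33.8%), with 5588 higher and 5485 lower, or 50.5% higher. Of the calls made as deposited, 77.1% were higher (5620 and 1673). DLEU1 itself read 1363.4 and 1023.8 in the control clone and 523.7 and 616.9 in the downregulated clone, a log2 change of -1.38 (limma adjusted p = 2.92e-06). The labels give no cut site, so it is unknown whether this probe set lies in an edited part. The B-cell marker MS4A1, which encodes CD20, read 6181.3 to 8376.2 on the 4 arrays, and its log2 change was -0.09 (adjusted p = 0.110). The summed intensity of 6 B-cell markers was 14921 to 17787 on the control arrays and 18980 to 21134 on the downregulated arrays. After normalization 1 of them rose and 4 fell, and MS4A1 was the one not called. CD74 rose by 0.60 on the log2 scale (limma adjusted p = 3.3e-05) and was the only one called as deposited. The falls were those of CD22 (-0.93, limma adjusted p = 2.6e-05), CD79B (-0.40), PAX5 (-0.23) and CD79A (-0.21). Markers of other cells were dim. The sums were 44.4 to 60 against 36.7 to 45.2 for 5 T-cell genes, 37.9 to 38.7 against 41.5 to 47.1 for 4 myeloid genes, 57 to 71.1 against 60.1 to 67.6 for 4 epithelial genes, and 193.2 to 202.2 against 114.6 to 167.7 for 5 fibroblast genes. Of these, only the fibroblast gene COL1A2 was called, as lower. In the downregulated clone its mean normalized intensity, 9.7, lay under the 11.4 needed for a test. It was tested only because the control arrays were higher, so this call supports nothing about such cells. The part of such cells in the results was not tested.

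In the DLEU1-downregulated clone ID2 was higher, TCF4 was lower relative to the rest of the array, and the probe sets of TCF3 moved in opposite directions. Of the 30 tested probe sets, 3 rose (17.1% of all probe sets did) and 15 fell (16.7% of all probe sets did). These were 2 rises for ID2, 1 rise and 5 falls for TCF3, 8 falls for TCF4 and 1 fall each for ID3 and TCF12. Their median log2 change was -0.42. As deposited, 3 rose and 2 fell, against 17.2% and 5.11% of all probe sets, and the members' median was -0.18. With a common trimmed mean 3 rose and 16 fell, against 15.6% and 19.2% of all probe sets (34.8% in all). Of the 16 falls, that of ID4 209291_at was tested only because the control arrays were higher, so it supports nothing. After median centring 4 rose and 4 fell, against 31.8% and 7.57% (39.4% in all). The rises of both ID2 probe sets and of TCF3 209153_s_at were called on all 4 scales, and so was the fall of TCF3 209151_x_at, while the falls of TCF4, ID3 and TCF12 depended on the scale. The normalized groups did not overlap in 26 of the 30 probe sets, against 66% of all probe sets tested. Many of the member probe sets are bright, where standard errors are small, so the shares over all probe sets are not like ones. For a single probe set, the smallest two-sided p that an exact permutation test of 2 against 2 arrays allows is 0.333.

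**Figure D1:**
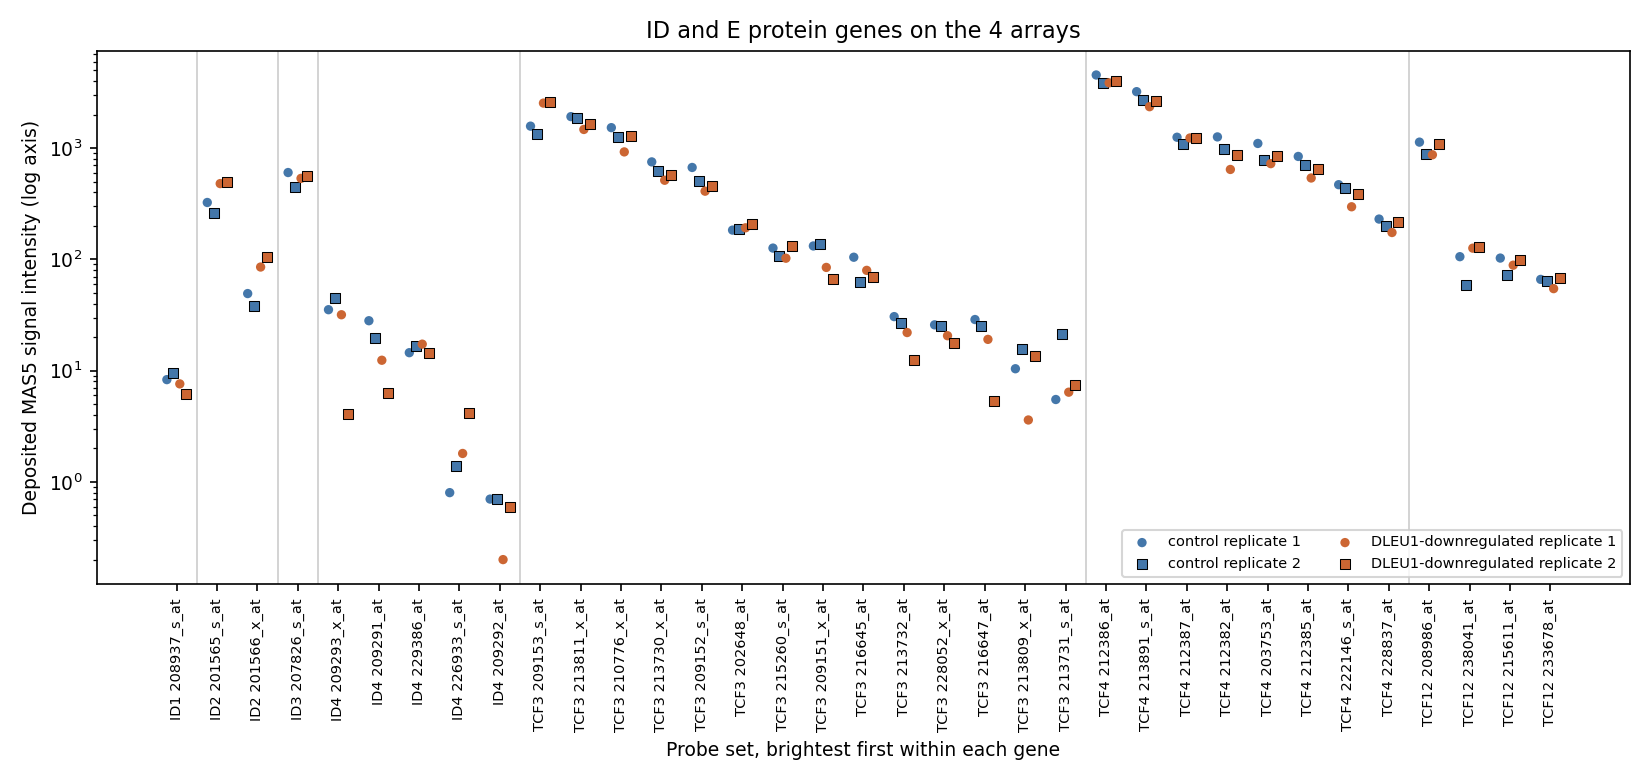
Deposited MAS5 signal intensity, on a log axis, of the 35 probe sets of the ID and E protein genes. Each symbol is 1 array, blue for control and orange for DLEU1-downregulated, with circles for replicate 1 and squares for replicate 2, and heights of different probe sets are not comparable. The orange symbols lie above the blue ones for both ID2 probe sets and for TCF3 209153_s_at, and below them for TCF3 209151_x_at.

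ID2, an inhibitor that lymphoid cells use to restrain E proteins, was higher on both downregulated arrays in both of its probe sets. Probe set 201565_s_at read 324.9 and 260.5 in the control clone and 480.4 and 493.1 in the downregulated clone. Both downregulated arrays lay above both control arrays, before and after normalization. The log2 change was 0.39 ± 0.09 (SE, n = 2 arrays each), a 1.31-fold rise (adjusted p = 0.00977), and 0.71 as deposited (adjusted p = 0.0306). Without replicate 1 of the downregulated clone it was 0.31 and no longer called (adjusted p = 0.112). The dimmer 201566_x_at, whose suffix marks probes that may bind unrelated transcripts, read 49.3 and 37.8 against 85.4 and 104.5. Its log2 change was 0.75 ± 0.16 (SE), or 1.68-fold (adjusted p = 0.00754). That call was lost without either downregulated array, with log2 changes of 0.78 (adjusted p = 0.0522) and 0.68 (adjusted p = 0.0764). Another probe set, annotated to both ID2 and the related ID2B and so no member, read 106.7 and 75.6 against 139.4 and 122.4, with a log2 change of 0.24 that did not pass (adjusted p = 0.281). The antisense gene ID2-AS1 had 2 tested probe sets with log2 changes of -0.21 and -0.04, neither past the threshold.

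ID3, the ID gene that Burkitt lymphomas often lose by mutation, showed little difference. Its single probe set, 207826_s_at, read 603.9 and 450.3 in the control clone and 535.2 and 567.5 in the downregulated clone. The deposited values overlapped, with both downregulated arrays between the control arrays. After quantile normalization the groups were apart and the log2 change was -0.27 ± 0.08 (SE; adjusted p = 0.0323, limma). The direction turned as deposited, at 0.08 (adjusted p = 0.874), and after median centring, at 0.12 (adjusted p = 0.570). The call was also lost when dim probe sets were kept (adjusted p = 0.0559), with eBayes without an intensity trend (adjusted p = 0.140), without replicate 1 of the control clone (log2 change -0.22) and without replicate 1 or 2 of the downregulated clone (-0.32 and -0.21). On all 4 scales the change lay below the median of all tested probe sets. For this position, median centring is not a separate check from the values as deposited, since it shifts all changes alike.

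ID1 and ID4, which encode the other two inhibitors of the family, were dim. The ID1 probe set 208937_s_at read 6.2 to 9.6 over the 4 arrays and was too dim to be tested. Of the 5 ID4 probe sets, 2 were too dim to be tested, at 0.2 to 4.2, and limma called 0 of the other 3, of which 2 had an unadjusted p under 0.05. Probe set 209291_at read 28.1 and 19.7 in the control clone and 12.4 and 6.3 in the downregulated clone, with a log2 change of -0.60 ± 0.25 (SE; adjusted p = 0.102), called only with a common trimmed mean. Both downregulated arrays were the lower ones, near or under the 16 that was added before the log. For 209293_x_at the intensities were 35.3 and 44.8 against 31.8 and 4.1. Its downregulated arrays differed from each other, and the log2 change of -0.87 did not pass (adjusted p = 0.116) but did as deposited (adjusted p = 0.0158), where it was -0.85. The intensities of 229386_at overlapped, at 14.5 and 16.6 against 17.3 and 14.4. No detection calls were used here, so it is unknown whether ID1 and ID4 were above background.

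TCF3, the E protein at the centre of the Burkitt lymphoma axis, gave probe sets that disagreed. The brightest, 209153_s_at, read 1577.9 and 1341 in the control clone and 2542.7 and 2617.1 in the downregulated clone. Both downregulated arrays lay far above both control arrays. The log2 change was 0.45 ± 0.06 (SE), a 1.37-fold rise (adjusted p = 6.04e-04), and 0.82 as deposited (adjusted p = 0.00144). It was called without each of the arrays in turn, with log2 changes from 0.37 to 0.53, but not with eBayes without an intensity trend (adjusted p = 0.0520).

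The remaining 11 tested TCF3 probe sets all had negative log2 changes, from -0.95 to -0.18, and 5 of them fell. In 209152_s_at the values were 670.7 and 511.4 in the control clone and 410.5 and 454.5 in the downregulated clone, so that both downregulated arrays were lower. The log2 change was -0.77 ± 0.08 (SE; adjusted p = 9.71e-05). It kept its direction as deposited, at -0.43, without passing (adjusted p = 0.230). The probe set 213730_x_at read 752.7 and 629.6 against 514.7 and 578.9, again with both downregulated arrays lower, and its log2 change was -0.68. For 213811_x_at the intensities were 1922 and 1886.3 against 1473.3 and 1660.7, with no overlap and a log2 change of -0.65. In 210776_x_at they were 1529.4 and 1263.2 against 925.7 and 1291.5, and here the deposited values overlapped, since the second downregulated array was above the second control array. Its log2 change was -0.70. These 3 were called after normalization but not as deposited. Probe set 209151_x_at read 132.1 and 137.5 against 84.7 and 66.2, and its log2 change of -0.95 ± 0.19 (SE; adjusted p = 0.00423) was also called as deposited, at -0.73 (adjusted p = 0.0238). The other 6 tested TCF3 probe sets did not pass, and 202648_at and 215260_s_at turned to 0.10 and 0.01 as deposited. A further 2 were too dim to be tested, at 3.6 to 21.2.

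Because the probe sets disagreed, a gene-level value for TCF3 depends on how they are combined. Taking the brightest probe set gave a log2 change of 0.45, while the mean of all TCF3 probe sets gave -0.41 (adjusted p = 0.0171). The choice of 209153_s_at as the brightest over all 4 arrays rests on its rise, since in the control clone 213811_x_at was brighter, with a mean normalized intensity of 2210 against 1667, and its log2 change was -0.65. Of the 14 TCF3 probe sets, 6 carry the suffix _x_at, which marks probes that may bind other transcripts, and 4 of the 5 that fell are among them. Which exons or splice forms each probe set reads was not analysed here.

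**Figure D2:**
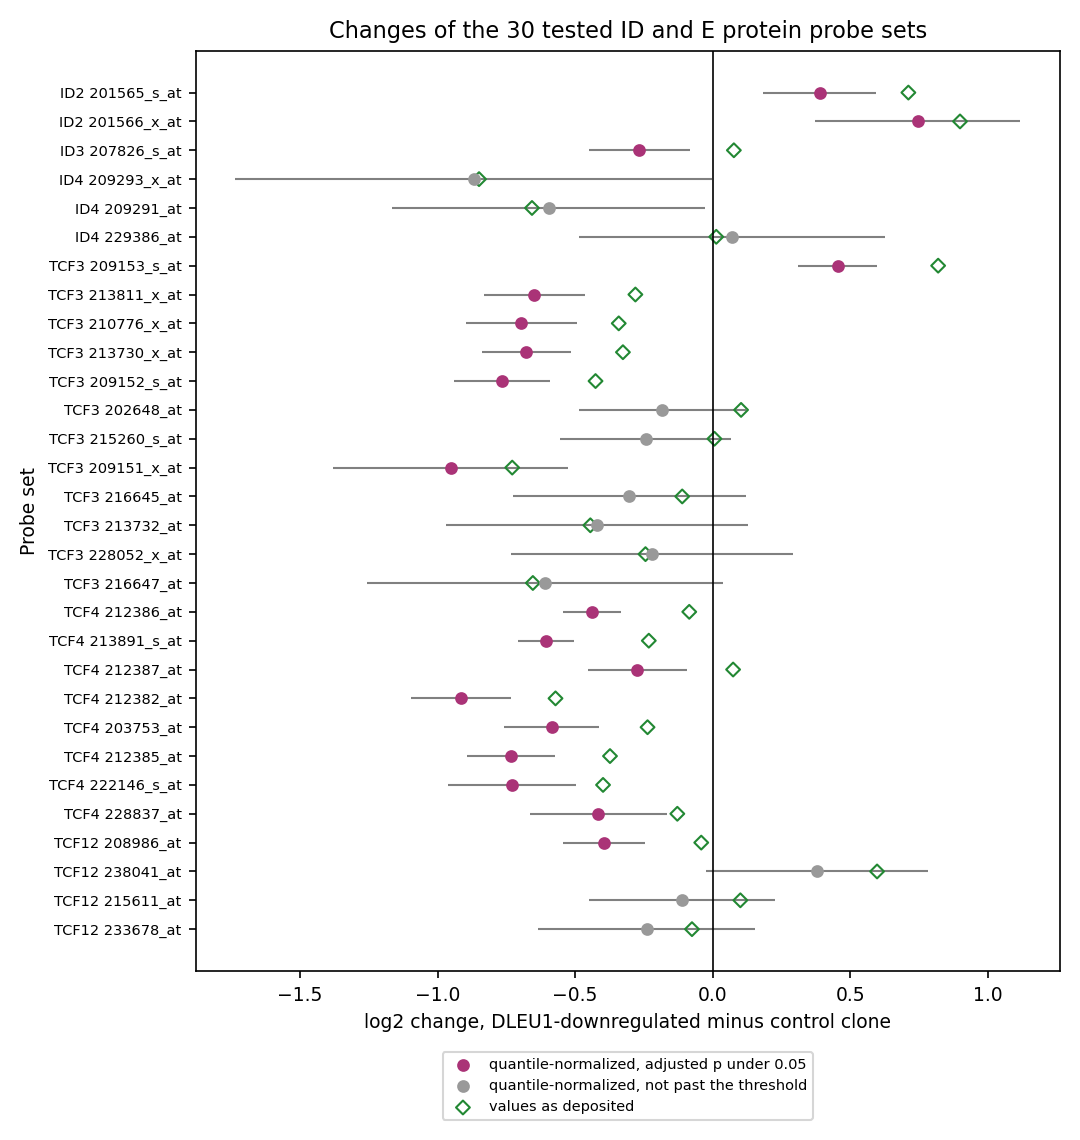
Log2 change (DLEU1-downregulated minus control, horizontal axis) of the 30 tested probe sets. Circles are quantile-normalized values with 95% confidence intervals from limma, purple where adjusted p was under 0.05 and grey elsewhere, and green diamonds are the values as deposited. The 8 TCF4 circles lie between -0.91 and -0.27, and TCF3 209153_s_at lies at 0.45 against negative values for the other 11 TCF3 probe sets.

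TCF4, an E protein of B cells and plasmacytoid dendritic cells, was lower in all 8 of its probe sets after quantile normalization and after scaling to a common trimmed mean, with 8 called on each of these scales. As deposited, 7 of 8 had negative log2 changes and limma called 0 (with a highest change of 0.07), and after median centring 7 of 8 were negative and 1 was called. On all 4 scales every TCF4 probe set lay below the median of all tested probe sets. Median centring shifts every change of the deposited values alike, so it is not a separate check of this position. In bulk RNA, fewer cells with a transcript and less of it per cell cannot be told apart.

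The brightest TCF4 probe set, 212386_at, read 4550.4 and 3880.3 in the control clone and 3865.7 and 4057 in the downregulated clone. The deposited values overlapped, and control replicate 1 was the highest of the 4. After normalization the downregulated arrays were both lower, with a log2 change of -0.44 ± 0.05 (SE; adjusted p = 1.36e-04), which was -0.09 as deposited (adjusted p = 0.795). Probe set 213891_s_at read 3222 and 2711.3 against 2360.1 and 2677.5, without overlap, and its log2 change was -0.61 ± 0.04 (SE; adjusted p = 1.81e-05), or -0.23 as deposited (adjusted p = 0.443).

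The size of the TCF4 change differed between probe sets. The largest was in 212382_at, at 1262.8 and 982 in the control clone and 643.7 and 860.1 in the downregulated clone. Both downregulated arrays were lower, and the log2 change was -0.91 ± 0.08 (SE; adjusted p = 4.59e-05), or -0.57 as deposited (adjusted p = 0.0681). The smallest was in 212387_at, at 1254.2 and 1084.5 against 1234.9 and 1222.6. These deposited values overlapped. The log2 change was -0.27 ± 0.08 (SE; adjusted p = 0.0265), turned to 0.07 as deposited, and lost its call when dim probe sets were kept, without an intensity trend in eBayes, without control replicate 2 (-0.22) or downregulated replicate 2 (-0.17). Probe sets 212385_at (log2 change -0.73), 222146_s_at (-0.73), 203753_at (-0.59) and 228837_at (-0.42) lay between them. The 228837_at call was lost without control replicate 2, without either downregulated array, and without an intensity trend in eBayes (adjusted p = 0.0582). TCF4-AS1, antisense to TCF4, was too dim to be tested.

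TCF12, the third E protein, which pairs with TCF3 and TCF4, had 1 called probe set of 4. The brightest, 208986_at, read 1133.2 and 883.8 in the control clone and 872.3 and 1082.8 in the downregulated clone. The deposited values overlapped. After normalization both downregulated arrays were lower, with a log2 change of -0.40 ± 0.07 (SE; adjusted p = 0.00166). It was -0.04 as deposited (adjusted p = 0.931) and turned to less than 0.01 above 0 after median centring (adjusted p = 0.992). The dimmer 238041_at went the other way, at 105.8 and 58.7 against 126.2 and 130.5. Its control arrays differed from each other by more than its downregulated arrays did, and its log2 change of 0.38 did not pass (adjusted p = 0.139), except after median centring, where it was 0.64, and without control replicate 1, where it was 0.62. The other two, 215611_at and 233678_at, did not pass. The mean of all TCF12 probe sets had a log2 change of -0.09 (adjusted p = 0.440).

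Ratios of probe sets on the same array do not depend on how bright the array is, and 13 such pairs were compared after the values had been seen. Each ratio is a log2 value minus its mean on the control arrays, from deposited intensities, so it shows unequal change and not which probe set changed. The ratio of ID2 201565_s_at to ID3 207826_s_at was 0.69 and 0.64 on the downregulated arrays, against -0.05 and 0.05 on the control arrays, a 1.58-fold shift. Against TCF4 212386_at the ID2 ratio was 0.84 and 0.81, and against TCF12 208986_at it was 0.92 and 0.65. On both downregulated arrays ID2 had gained on ID3, TCF4 and TCF12 by more than the control arrays differed. The ratio of ID3 to TCF4 shifted by 0.17, with control values of 0.10 and -0.10. The ID3 to TCF12 and TCF4 to TCF12 ratios overlapped between the clones, with mean shifts of 0.12 and -0.04.

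Within TCF3, the ratio of 209153_s_at to the other called probe sets shifted by 1.11 to 1.67. It was 1.32 and 1.21 on the downregulated arrays relative to 209152_s_at, against -0.08 and 0.08 on the control arrays, a 2.40-fold shift. Relative to 213730_x_at the values were 1.23 and 1.10, against -0.01 and 0.01. For these pairs the difference was present on both downregulated arrays whatever the scale of the array. The pairs set the TCF3 probe set called higher against the 5 called lower, so a shift in this direction follows from the choice. It is no separate support for the disagreement, and the TCF3 probe sets that were not called were not compared in this way. In TCF4, the ratio of 212387_at to 212382_at was 0.87 and 0.44 on the downregulated arrays. This pair was picked as the smallest and the largest TCF4 fall after normalization. A shift in this direction thus follows from the choice, and the ratio gives only its size on each array. For each pair without overlap, p was 0.333 by an exact permutation test (two-sided), the smallest possible, and it was 0.667 and 1 for the 2 pairs that overlapped.

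**Figure D3:**
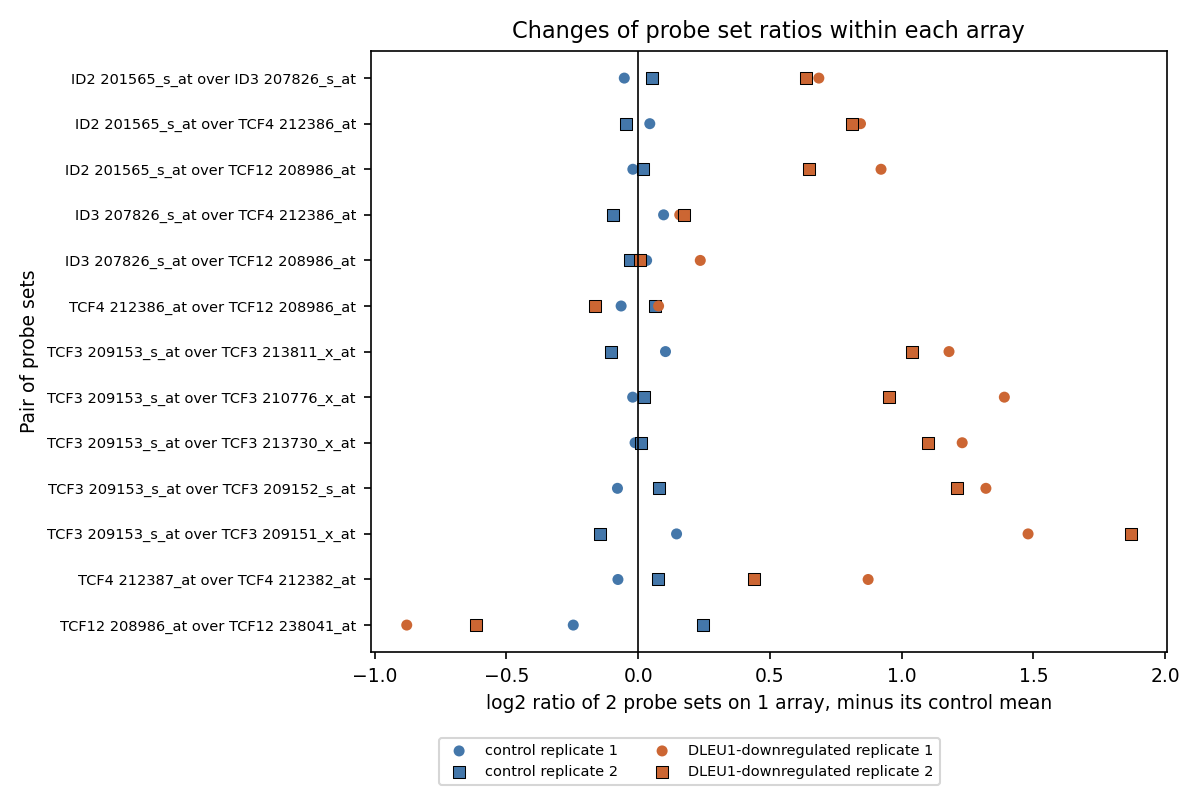
Log2 ratio of 2 probe sets on the same array minus its mean on the control arrays (horizontal axis), for 13 pairs. Each symbol is 1 array, coloured and shaped as in the plot of intensities. Ratios with TCF3 209153_s_at on top lie between 0.95 and 1.87 on the downregulated arrays and within 0.15 of 0 on the control arrays, while ID3 to TCF12 and TCF4 to TCF12 overlap.

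The genes with the most similar pattern to ID3 over the 4 arrays, by Euclidean distance of centred normalized log2 values among 13291 other genes, were VDAC3, CRYL1 and COQ10B, at distances of 0.02. For the brightest TCF3 probe set they were SNU13, XPO5 and LINC02532, at distances of 0.02 to 0.03. With 4 arrays this likeness mostly restates a log2 change of the same size.

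Genes that E proteins are known to bind or activate in B cells were lower in the downregulated clone for the most part on the normalized scale. Of 21 listed genes 17 were tested in their brightest probe set, and 1 rose and 11 fell, against 20.6% higher and 20.6% lower, 41.2% in all, among 13292 genes tested. The list's median log2 change was -0.28, against -0.01 for all genes. CD79A, CD79B and PAX5 are also among the B-cell markers given above, so the falls of list and markers are not separate. Many genes of the list are bright, where standard errors are small, so the share over all genes is not a like one. As deposited, 1 rose and 4 fell, against 20.3% and 5.74% of genes. With a common trimmed mean 1 rose and 9 fell, against 19.9% and 22.2% of genes (42.1% in all). After median centring 3 rose and 5 fell, against 36.7% and 8.42% (45.2% in all).

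The falls called on all 4 scales were those of VPREB3, VPREB1, FOXO1 and CXCR4. VPREB3, a protein of immature B-cell receptor assembly, read 1032.5 and 774.7 in the control clone and 295.1 and 330.4 in the downregulated clone. Both downregulated arrays were below both control arrays, with a log2 change of -1.81 ± 0.08 (SE; adjusted p = 1.49e-06). VPREB1, part of the surrogate light chain, fell from 79.2 and 59.3 to 15.7 and 23 (log2 change -1.35). Its downregulated values lay near the added 16, which sets part of this log2 change. FOXO1, a factor of the germinal centre dark zone that PI3 kinase signalling holds in check, fell from 363.7 and 289.4 to 169.9 and 167.2 (-1.19). CXCR4, a chemokine receptor, fell from 6662.4 and 5227.5 to 3495.2 and 3881.6 (-1.02), and its 3 tested probe sets all fell. CDK6, the kinase partner of D-type cyclins, was the gene of the list that rose, from 1974.7 and 1510.4 to 3658 and 3922.3 (log2 change 0.75), also on all 4 scales.

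CCND3, the cyclin D3 gene that TCF3 activates in Burkitt lymphoma, read 1741.6 and 1393.5 in the control clone and 1098.1 and 1334.5 in the downregulated clone. The downregulated arrays were lower, and the log2 change was -0.72 ± 0.06 (SE; adjusted p = 2.74e-05), with -0.36 as deposited (adjusted p = 0.259). EBF1, which commits cells to the B lineage with TCF3, had a log2 change of -0.61, and -0.24 as deposited without passing. E2F2, of cell cycle entry, had -0.49, the receptor chain CD79B -0.40 and the coactivator POU2AF1 -0.27, all called after normalization and not as deposited, where POU2AF1 turned to 0.01. Of 3 tested E2F2 probe sets 1 was called after quantile normalization, and their log2 changes ranged from -0.71 to 0.40. CD79B turned to less than 0.01 above 0 after median centring. The B-lineage factor PAX5 (-0.23) and the receptor chain CD79A (-0.21) also fell after quantile normalization, did not pass with a common trimmed mean, and turned positive as deposited and after median centring. PTPN6, a phosphatase that dampens B-cell receptor signals and that TCF3 is reported to repress, read 116.4 and 95.1 against 148.7 and 203.7. Its log2 change of 0.39 did not pass (adjusted p = 0.0512) except after median centring, where it was 0.69. The adaptor gene BLNK had -0.08, which did not pass, but turned to 0.27 as deposited and to 0.31 after median centring, where it was called (adjusted p = 0.0431). IGLL1, CDKN1A and the immunoglobulin gene IGHM, each by its brightest probe set, did not pass on any of the 4 scales. The 5 tested IGHM probe sets disagreed after quantile normalization. Of these 1 was called higher and 1 lower, with log2 changes from -0.49 to 0.77.

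The list of other partners and cofactors of E proteins held 22 genes, of which 12 were tested, and 3 rose and 2 fell, with a median log2 change of -0.07. These 5 calls among 12 genes are near the 41.2% of all genes that were called. As deposited 3 rose and 0 fell, against 20.3% and 5.74% of genes. After median centring 5 rose and 0 fell, CREBBP and EP300 among the rises, against 36.7% and 8.42% of genes. After quantile normalization the 3 tested CREBBP probe sets ranged from -0.58 to 0.86, with 1 called, as higher. The 2 of EP300 ranged from -0.23 to 0.04, with 0 called. With a common trimmed mean 1 rose and 2 fell, against 19.9% and 22.2% of genes. CBFA2T2, a corepressor of the ETO family, rose from 220.7 and 168.3 to 364.6 and 431.9 (log2 change 0.67 ± 0.09 SE, adjusted p = 6.21e-04), on all 4 scales. TAL1, which pairs with E proteins in blood stem cells and red cells, read 8.5 and 4.7 in the control clone and 23.7 and 23.5 in the downregulated clone, and NHLH1, a neuronal relative, 4.5 and 4.8 against 28.8 and 16.1. Both rises were in the dim range, where the added 16 sets part of the log2 change, and neither passed with a common trimmed mean. The control values of both lay under the filter's intensity of 11.4, so they were tested only because the downregulated arrays were higher, and their 2 rises support nothing about the list. LMO2, a bridge between such factors, had a log2 change of -0.49, which was not called as deposited (-0.29, adjusted p = 0.459) or after median centring (-0.24, adjusted p = 0.349). The ETO relative RUNX1T1 had -0.30, which turned to 0.02 as deposited and 0.06 after median centring. Of its 6 tested probe sets 1 was called after quantile normalization, and their log2 changes ranged from -0.30 to 0.13. Without single arrays between 1 and 3 genes of this list were called.

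Of 21 listed genes of the BMP and TGF-beta route to the ID genes and other ID regulators, 16 were tested, 2 rose and 4 fell, and the median log2 change was -0.17. These 6 calls among 16 genes are no larger a share than the 41.2% of all genes called, so the values are given gene by gene. SMAD1, the BMP-responsive factor that activates ID genes, read 248.5 and 194.7 in the control clone and 73.5 and 79.6 in the downregulated clone. Both downregulated arrays were far lower, with a log2 change of -1.60 ± 0.12 (SE; adjusted p = 2.28e-05), and both tested SMAD1 probe sets fell. EGR1, an immediate early factor that can induce ID3, fell from 239 and 176.7 to 57.3 and 58.8 (log2 change -1.80 ± 0.13 SE, adjusted p = 1.92e-05), in all 3 of its tested probe sets. SMAD1 and EGR1 were called on all 4 scales.

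SMAD7, an inhibitor of the same route, rose from 45.1 and 42.9 to 82.5 and 104.4 (log2 change 0.70), also on all 4 scales. CDC20, an activator of the anaphase-promoting complex that marks ID proteins for destruction, rose by 0.24 on the log2 scale and was called on all 4 scales as well. The receptor genes BMPR2 (-0.49) and TGFBR1 (-0.54) fell after normalization and with a common trimmed mean, and were not called as deposited or after median centring. After quantile normalization 1 of 3 tested TGFBR1 probe sets was called, with log2 changes from -0.54 to 0.26. For BMPR2 2 of 4 were called, with log2 changes from -0.71 to -0.006. Without downregulated replicate 1 or 2, the calls in this list came down to 3, all of them falls, so those of SMAD7 and CDC20 were lost. USP1, the enzyme that protects ID proteins from degradation, had a log2 change of 0.07 (adjusted p = 0.263). After median centring it was 0.49 and called. Both values belong to the brighter of 2 tested USP1 probe sets. The other, at 0.36 after quantile normalization, was called higher there.

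**Figure D4:**
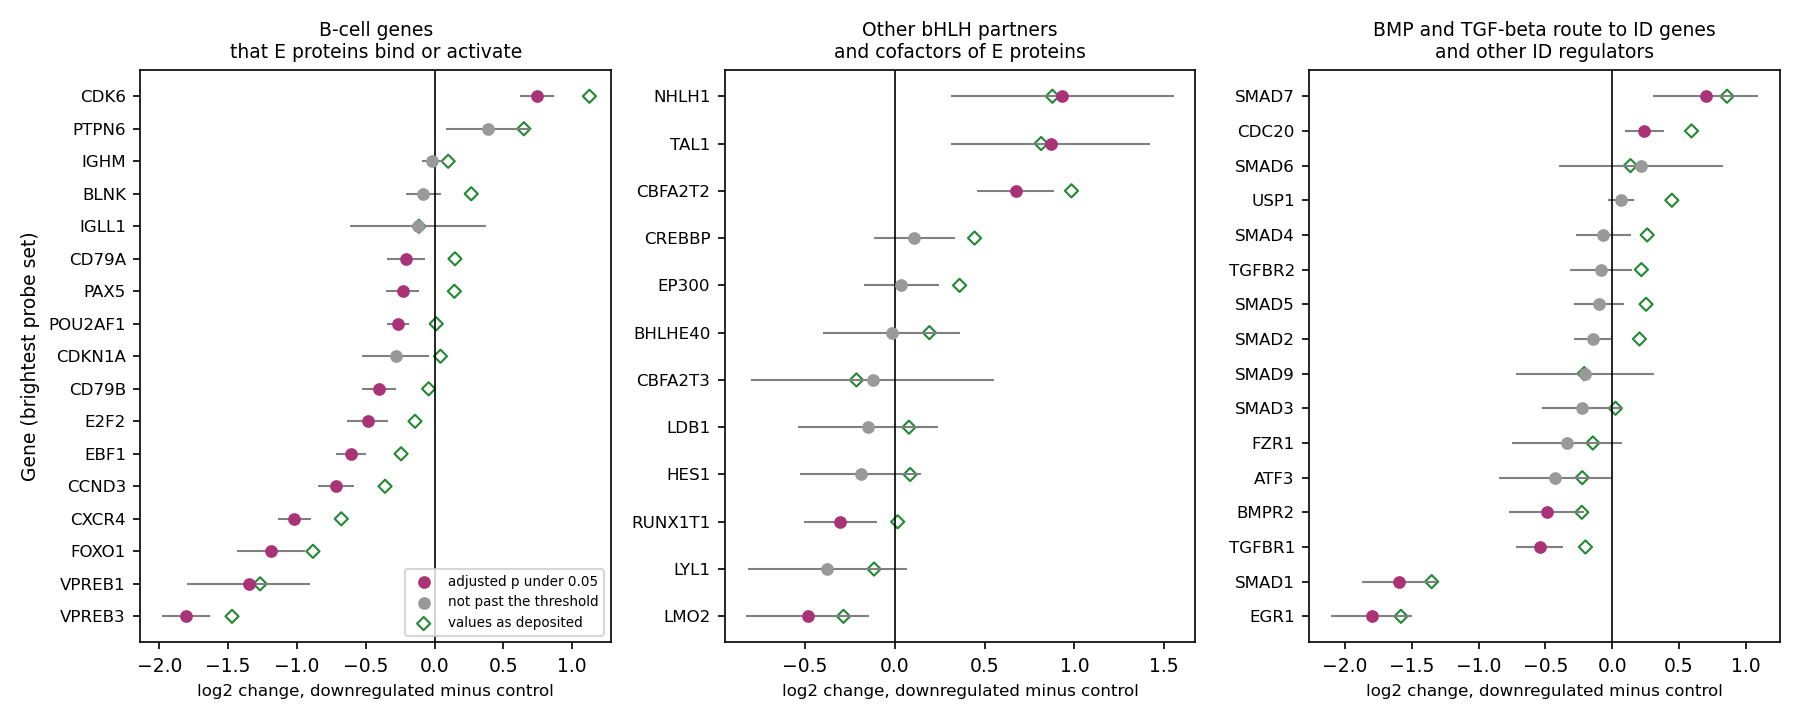
Log2 change (DLEU1-downregulated minus control, horizontal axis) of the tested genes in 3 pathway lists, each by its brightest probe set. Circles are quantile-normalized values with 95% confidence intervals from limma, purple where adjusted p was under 0.05 and grey elsewhere, and green diamonds are the values as deposited. VPREB3, EGR1 and SMAD1 lie at -1.81, -1.80 and -1.60, while PAX5 and CD79A have circles below 0 and diamonds above 0.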

How the data were processed

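The authors deposited signal intensity values on a linear scale for 4 arrays, made with MAS5 per the submitters' processing notes. No scaling target, detection calls or software version were given in these sources. The table held 54675 probe sets, of which 62 are array controls and were left out. Symbols came from the platform annotation (2016): 41091 probe sets have 1 symbol, 1801 several and 11721 none, and 41037 matched a RefSeq gene.

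Intensities were quantile-normalized, since the trimmed means share no common target, and log2(value + 16) was taken, which understates the change of dim probe sets. Probe sets with a mean log2 value under the 40th percentile (4.77, an intensity of 11.4) were not tested, which left 32768. Differences, DLEU1-downregulated minus control, were tested with limma 3.58.1 in R 4.3.3 (lmFit, eBayes with an intensity trend). P-values were adjusted by Benjamini-Hochberg over all probe sets tested, with a threshold of 0.05. For lists, a gene is its brightest probe set with 1 symbol. The procedure was tested on simulated data with known changes.

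The members, lists and markers were chosen with earlier results of these data known. Text names every member probe set or its range, DLEU1, the called genes of each pathway list, 6 genes whatever their values (CCND3, PTPN6, EBF1, PAX5, USP1, SMAD1), and for ID3 and TCF3 the 3 nearest genes. Other names (MS4A1, CD22, CD74, COL1A2, uncalled list genes) and the 13 ratio pairs were chosen after their values were seen. Alternatives were the scaling, pseudocount, filter, trend, threshold, gene summary, probe sets with the suffix _x_at, the replicate number as a block, and leaving out each array. The labels name no batch. The number of arrays, 2 per clone, limits the precision.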

Additional observations from a re-analysis of the deposited data

How the results depend on the processing

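The rises of both ID2 probe sets and of TCF3 209153_s_at kept their direction under every setting run on single probe sets, while ID3, TCF4 and TCF12 depended on the scale of the arrays. The cause was not tested. Calls also rest on limma's variance estimate, which differed between scales. Its prior degrees of freedom, the weight of the variance shared by all probe sets, were 6.76 after quantile normalization and 6.62 with a common trimmed mean. They were 145 after median centring and infinite as deposited. As deposited, the counts of calls were 7293 of all probe sets (11073 in the reported fit), 5 of the members (18), 5 of the B-cell genes (12) and 3 of the partner genes (5). On that scale the log2 change was 0.077 for ID3, 0.10 for TCF3 202648_at, 0.006 for TCF3 215260_s_at, 0.074 for TCF4 212387_at and 0.10 for TCF12 215611_at, all reversed. It was -0.85 for ID4 209293_x_at, now called, and -0.085 for TCF4 212386_at and -0.042 for TCF12 208986_at, no longer called. After median centring 8 members were called, and the reversed values were 0.12 for ID3, 0.15 for TCF3 202648_at, 0.05 for TCF3 215260_s_at, 0.12 for TCF4 212387_at, 0.14 for TCF12 215611_at and 0.002 for TCF12 208986_at. ID4 209293_x_at was called at -0.81 and TCF4 212386_at was not, at -0.041. With a common trimmed mean ID4 229386_at reversed to -0.15, and 3 partner genes were called, as also with no filter and with a filter at the 60th percentile. With no filter ID3 lost its call at an unchanged -0.27. Without an intensity trend in eBayes 7156 probe sets were called, and ID2 201565_s_at (0.39), ID3 (-0.27), TCF3 209153_s_at (0.46) and TCF12 208986_at (-0.40) lost their calls, as did TCF4 212387_at and 228837_at. At an adjusted p of 0.01, 7158 probe sets, 1 partner gene and 3 ID regulators were called. With a gene taken as its probe sets' mean, 1 partner gene was called, TCF3 reversed to -0.41 and TCF12 was -0.092, not called. Without the suffix _x_at 13 members were called.

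Leaving out each array in turn gave 7010 to 10078 called probe sets, 14 to 18 members, 10 to 13 B-cell genes, 1 to 3 partner genes and 3 to 6 ID regulators. The log2 changes ranged from 0.31 to 0.47 for ID2 201565_s_at, -0.32 to -0.21 for ID3, -1.48 to -0.24 for ID4 209293_x_at, 0.37 to 0.53 for TCF3 209153_s_at, -0.49 to -0.40 for TCF4 212386_at and -0.45 to -0.35 for TCF12 208986_at. ID4 209293_x_at was at its lowest and highest without one or the other downregulated array, and ID4 229386_at ranged from -0.056 to 0.205, reversed to -0.056 without control replicate 1 and -0.008 without downregulated replicate 1. With 1 array left in a clone, that array is assumed to vary like the other clone's pair.

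With the replicate number as a block 11185 probe sets, 18 members, 13 B-cell genes, 5 partner genes and 6 ID regulators were called, and no member's call changed. The deviations of same-numbered arrays correlated at -0.01, so the numbers are not shown to pair the arrays. Dim probe sets are limited by the added 16, and no measure of background was used here.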
